A study of Mus musculus with 6 samples.

Results

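The clustered histone genes encode the proteins around which DNA is wrapped (H2A, H2B, H3 and H4) and the linker histone H1 that binds between these particles. They are present in many near-identical copies, and most are transcribed while DNA is replicated, to supply new chromatin. Their messenger RNAs typically end in a short stem-loop that is bound by the stem-loop binding protein instead of in a poly(A) tail, so a library made from polyadenylated RNA is poor in them. Some cluster genes also give polyadenylated transcripts that end at a downstream poly(A) signal, as is known from differentiated cells. Members were all protein-coding genes of the deposited files whose mouse symbol starts with Hist1h, Hist2h, Hist3h or Hist4, a rule that used no measured value. It took 65 of 48,353 genes, of which 6 encode H1, 18 H2A, 16 H2B, 12 H3 and 13 H4. A further 3 names with such a prefix are not protein-coding in GENCODE M21 and were left out.

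The libraries are polyadenylated RNA of mouse hepatocytes, the parenchymal cells of the liver, isolated by collagenase perfusion. There were 3 Bim knock-out libraries and 3 wild-type libraries, all of strain C57BL/6. In the knock-out, a floxed Bim gene (Bcl2l11, which encodes a BCL-2 family protein that promotes cell death) was deleted with Alb-Cre, a Cre recombinase driven by the albumin promoter and therefore active in hepatocytes. The protocol speaks of male mice fed either chow or a diet high in fat, without saying which sample had which. The labels do not tell whether each sample is a different animal, and p-values thus reflect only how far these samples spread, which may be technical.

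Estimated reads came to 25,335,211 to 31,130,519 per library, and 10,486 to 11,255 genes were above 0. Bcl2l11 was listed at 0 reads in all 3 knock-out libraries, against 0, 680 and 478 reads in the wild-type libraries, so the library labelled wild-type replicate 1 goes against its label for this gene. An exact 0 at a locus with several transcripts can be an estimate that was not made. The same library stands apart in other ways: 11 macrophage markers sum to 78.6 to 140.0 RPKM (reads scaled to transcript length and to the library total) in the knock-out libraries, against 4422 RPKM in the library labelled wild-type replicate 1, 134.1 in wild-type replicate 2 and 128.2 in wild-type replicate 3. Of these markers 6 were above 0 in all 6 libraries. The 8 hepatocyte markers sum to 21,067 to 34,301 RPKM in knock-out cells and 17,429 to 39,503 RPKM in wild-type cells, of which Alb, the albumin gene, made up 86.2% to 92.1%. Of the other hepatocyte markers Tat was at 0 in all 6 libraries, Hnf4a was at 0 in knock-out replicate 3, and 5 were above 0 in all 6. All 6 stellate cell and all 5 neutrophil markers were at 0, as were 5 of 6 T cell and 3 of 4 B cell markers. The 6 endothelial markers were at 0 except for a sum of 31.5 RPKM in the library labelled wild-type replicate 1. The 5 biliary markers sum to 9.09 to 509.9 RPKM in knock-out cells and 123.5 to 353.1 RPKM in wild-type cells, most of it Spp1 except in knock-out replicate 1, where that gene was listed at 0, and 4 of 5 erythroid markers were at 0. The comparisons of the groups, the sums and the shares of reads are given with and without the library labelled wild-type replicate 1. The permutation tests are given only with it.

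The stem-loop is what sets the end of most histone messenger RNAs apart, and is shown first for members that were read, with the 16 bases of the stem and loop in capitals and 5 bases on either side. Sequences are those of GENCODE M21 on GRCm38, the build of the files, on the strand of the gene. Hist1h1c (chr13:23739507-23739532, plus strand) encodes a linker histone, Hist1h2bg (chr13:23571838-23571863, plus) and Hist1h2bk (chr13:22036295-22036320, plus) encode H2B, Hist2h2aa2 (chr3:96239779-96239804, minus) encodes H2A, and Hist1h4i (chr13:22040961-22040986, minus) and Hist4h4 (chr6:136803993-136804018, minus) encode H4. All lie after the end of the coding sequence, in the untranslated end of the model.
Hist1h1c: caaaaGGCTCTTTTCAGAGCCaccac
Hist1h2bg: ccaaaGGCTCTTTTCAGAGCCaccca
Hist1h2bk: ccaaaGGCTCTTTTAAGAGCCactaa
Hist2h2aa2: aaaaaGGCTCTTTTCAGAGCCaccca
Hist1h4i: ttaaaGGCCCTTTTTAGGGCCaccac
Hist4h4: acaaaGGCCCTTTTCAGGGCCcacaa
The stem was found after the coding end in 40 of the 64 members whose deposited model could be matched to M21 sequence. Many of the other models stop at or just after the stop codon, so that no stem-loop could be found in them. Those of Hist1h2bl, Hist1h2bn, Hist1h3h and Hist1h1b, for example, have 3 bases after the last codon, stop included. The form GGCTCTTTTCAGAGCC was the most frequent, in 23 members of the H1, H2A, H2B and H3 families. The H4 members carried other stems, among them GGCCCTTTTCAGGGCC in 6 members and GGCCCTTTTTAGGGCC in 2.

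Of the 65 members, 15 were above 0 reads in all 6 libraries, 16 in some and 34 in none. Averaged over the 6 libraries, 9 members reached 1 RPKM or more, and 8 had at least 10 reads in every library. At the 57 members whose locus has 1 annotated transcript, all 116 library values above 0 were even whole numbers within 0.001, so that 2 reads is the smallest value these loci show. A locus at 0 in a library is below a limit of 6 reads, which is 3 such counts, or 0.685 to 0.779 RPKM for a transcript of 400 bases, as counting error alone. Of the 8 members at loci with several transcripts, 0 were above 0 in all 6 libraries, 3 in some and 5 in none, and their zeros may be estimates not made. Depth thus limits what can be said of the members at 0: they were not detectable, which is not the same as absent.

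Reads were concentrated on H2B and on 1 gene of it. H2B genes held 74.6% of the 10,214 reads that all members took in the 6 libraries together, H1 genes 15.1%, H2A genes 9.06%, H4 genes 1.21% and H3 genes 0.0587%. These shares without the library labelled wild-type replicate 1 were 74.1%, 13.7%, 10.98%, 1.19% and 0.0265%. Of the 16 H2B genes 10 were read in all 6 libraries, against 1 of 6 H1 genes, 1 of 18 H2A genes, 0 of 12 H3 genes and 3 of 13 H4 genes. Of the 12 H3 genes 11 were at 0 everywhere, and Hist2h3c2 had 2 reads in knock-out replicate 1 and 4 in the library labelled wild-type replicate 1. By position, the large cluster on chromosome 13 (chr13:21715763-23934851, GRCm38) has 52 members, 12 of them read in all 6 libraries, and took 9181 reads. The cluster on chromosome 3 (chr3:96219865-96270132) has 10 members, of which 2 were read in all 6, and took 883 reads. Hist4h4, alone on chromosome 6 (chr6:136801553-136804415), had 30 reads in all, and of the 2 members on chromosome 11 Hist3h2a had 120 reads, all of them in wild-type replicate 3, at a locus with 4 transcripts.

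**Figure D1:**
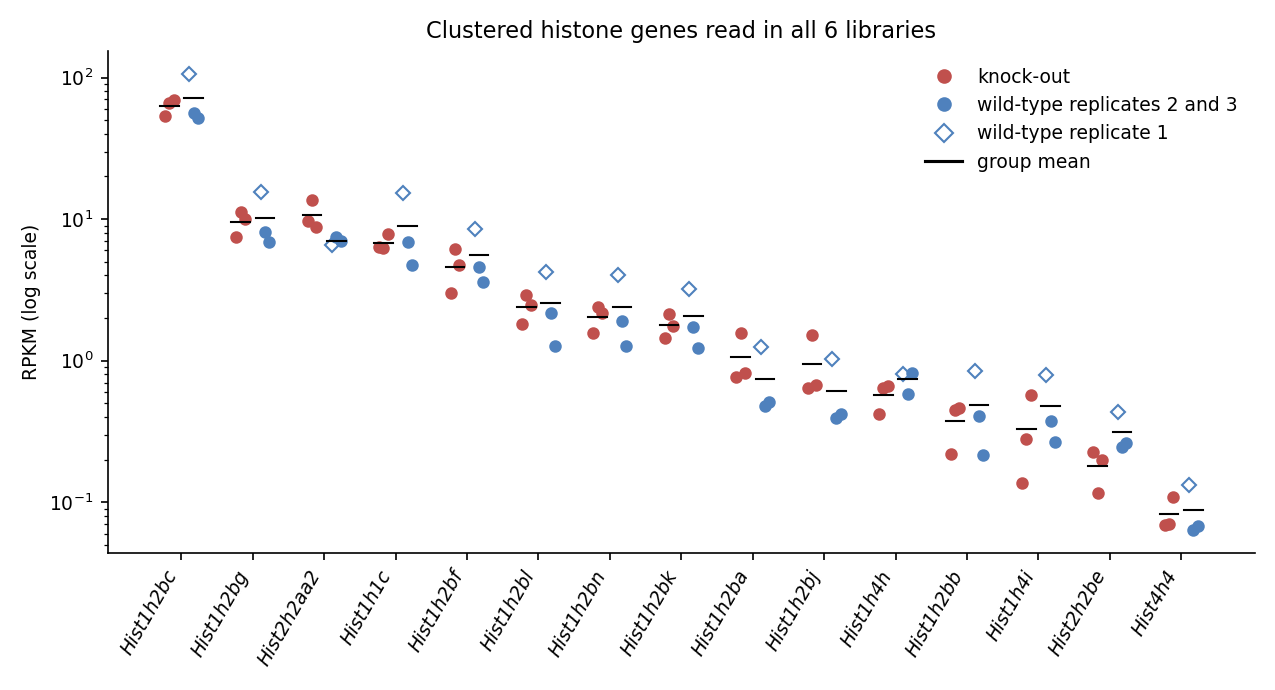
RPKM (log scale) of the 15 members above 0 in all 6 libraries, ordered by mean, with a point per library, knock-out left of wild-type. Hist1h2bc lies at 52.1 to 106.6 RPKM, above every other member, and the highest wild-type point is the library labelled wild-type replicate 1 for most members.

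Hist1h2bc (ENSMUSG00000018102), an H2B gene, took 6066 reads, 59.4% of all member reads and 58.6% without the library labelled wild-type replicate 1. It had 796, 962 and 976 reads in the knock-out libraries, against 1644, 900 and 788 in the wild-type libraries, and 53.5, 66.0 and 68.9 RPKM against 106.6, 55.8 and 52.1 RPKM. The library labelled wild-type replicate 1 is the highest, and the other 5 libraries lie close together with the groups overlapping. The mean was 62.8 ± 8.20 RPKM in knock-out cells and 71.5 ± 30.4 RPKM in wild-type cells (SD, n = 3 each), and its log2 difference was −0.12 ± 0.32 (limma, standard error; adjusted p = 1.0). The deposited model (chr13:23684199-23692488, plus strand, 736 bases) has no stem-loop after the coding end and differs from the other members read at a high level by an intron. Exon 1 of 423 bases ends 12 bases after the last codon, an intron of 7554 bases follows, and exon 2 of 313 bases lies wholly in the untranslated end. The junction is shown as 15 bases of exon 1, up to position 23684621, and in capitals 15 bases of exon 2, from position 23692176.
Hist1h2bc: aagtgatcctgccaaGAGGAGCAGACCTGA
A poly(A) signal, AATAAA or ATTAAA within the last 40 bases of the model, was present.

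Hist1h1c (ENSMUSG00000036181), the linker histone known as H1.2, was the only H1 gene read in all 6 libraries. It had 202, 192 and 234 reads in the knock-out libraries, against 496, 234 and 152 in the wild-type libraries, which is 6.40, 6.21 and 7.79 RPKM against 15.2, 6.85 and 4.75 RPKM. The library labelled wild-type replicate 1 was the highest and wild-type replicate 3 the lowest, so the wild-type values enclose the knock-out ones. Its log2 difference was −0.21 ± 0.43 (limma; 95% interval −1.32 to 0.90; adjusted p = 0.993). The model of 1560 bases holds the stem-loop shown above and runs on for another 840 bases to a poly(A) signal, here in capitals in the last 30 bases of the model (chr13:23740338-23740367, plus strand). The same window of Hist2h2be (chr3:96223709-96223738, plus strand), an H2B gene of the chromosome 3 cluster without a stem-loop in its model, is set beside it.
Hist1h1c: ttctAATAAAaagcgtttagttttcattca
Hist2h2be: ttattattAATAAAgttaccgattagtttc
The other H1 genes were near or at 0. Hist1h1e had 6, 0 and 2 reads in knock-out cells and 6, 4 and 0 in wild-type cells, Hist1h1d had 2, 2 and 0 against 2, 2 and 0, and Hist1h1a had 2 reads in knock-out replicate 1. Hist1h1b and the testis-specific Hist1h1t were at 0 in all 6 libraries, and all of the sequence of both models is their own, in the sense defined below.

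Read level and the end of the model were set side by side. A long end without a stem-loop, of at least 100 bases after the coding end, was found in 6 members, 5 of them with a poly(A) signal, and these took 6154 reads or 60.3% of the total, nearly all of it Hist1h2bc. Within this class, 2 members were read in all 6 libraries, 1 in some and 3 in none. A stem-loop followed by at least 100 further bases was found in 12 members, 9 with a poly(A) signal, which took 1875 reads (18.4%), and of which 3 were read in all 6, 5 in some and 4 in none. A stem-loop with the model ending within 100 bases was found in 28 members, 0 with a poly(A) signal, which took 1883 reads (18.4%), and of which 6 were read in all 6, 9 in some and 13 in none. The remaining 18, with neither a stem-loop nor 100 bases after the coding end, took 264 reads (2.58%), and 14 of them were at 0 everywhere. Leaving out the library labelled wild-type replicate 1, these 4 shares were 59.4%, 18.0%, 19.7% and 2.49%. Of the members with a poly(A) signal 5 were read in all 6 libraries, 5 in some and 4 in none, and of those without one 9, 11 and 30. A model that ends at the stop codon can show neither a stem-loop nor a downstream poly(A) signal, so these counts describe the models and not the genes. Hist1h2bg and Hist2h2aa2 were listed with reads in every library and have models that end shortly after the stem-loop. Their reads cannot be assigned securely, as the shared sequence described below shows, and the models are those of the annotation, so a transcript that runs past the annotated end was not looked for.

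**Figure D2:**
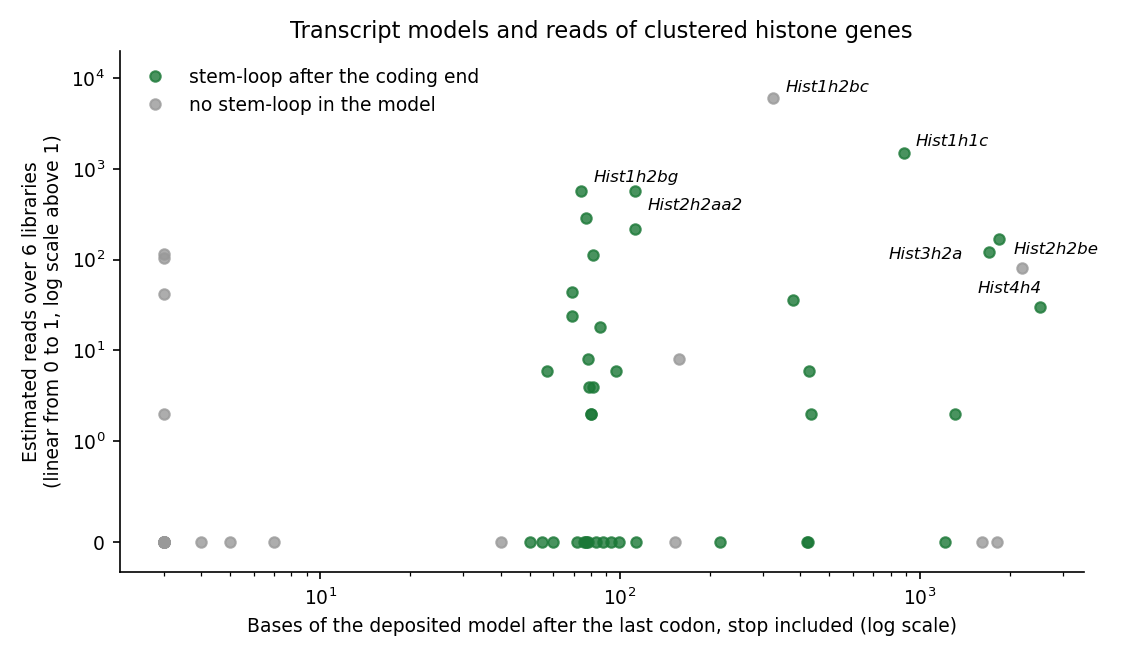
Each point is 1 of the 64 members with a matched model. The x axis gives the bases of the deposited model after the last codon (log scale), the y axis the estimated reads over the 6 libraries (linear from 0 to 1, then log scale), and colour marks a stem-loop after the coding end. Hist1h2bc has no stem-loop and 6066 reads, Hist1h1c a stem-loop and 1510 reads, and Hist1h2bg and Hist2h2aa2 are highest among models that end soon after the stem-loop.

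The H2B genes other than Hist1h2bc followed at lower levels, most of them encoding near-identical proteins. Hist1h2bg had 72, 106 and 92 reads in knock-out cells, against 154, 84 and 68 in wild-type cells, and Hist1h2bf had 28, 56 and 42 against 82, 46 and 34. Hist1h2bl had 14, 22 and 18 reads in knock-out cells and 34, 18 and 10 in wild-type cells. In these 3 genes the library labelled wild-type replicate 1 was again the highest and the groups overlapped. Hist1h2bn had 12, 18 and 16 reads in knock-out cells and 32, 16 and 10 in wild-type cells, and Hist1h2bk had 14, 20 and 16 against 32, 18 and 12. These last 2 genes lie just above a mean of 1 RPKM, at 2.22 and 1.91 RPKM. Just below it lie Hist1h2ba, a testis-specific H2B gene, at 0.898 RPKM and Hist1h2bj at 0.781 RPKM. Hist1h2ba had 6, 12 and 6 reads in knock-out cells and 10, 4 and 4 in wild-type cells, and Hist1h2bj 6, 14 and 6 against 10, 4 and 4. Here knock-out replicate 2 was the highest library, and the pair of genes had the same number of reads in the other 5. Hist1h2bb had 2, 4 and 4 reads in knock-out cells and 8, 4 and 2 in wild-type cells.

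How far these values belong to the gene they are listed under is uncertain, since members share sequence and the sources used here do not say how reads that fit several places were treated. Each model was divided into windows of 50 bases, a length chosen here because the read length is not given, and a window was called the gene's own if no gene at another place holds it. Of the 687 windows of Hist1h2bc 362 (52.7%) are its own. The other H2B genes of the chromosome 13 cluster share 106 to 256 windows with it. Hist1h2bg shares 256 and had 8.63 to 11.02 reads per 100 reads of Hist1h2bc in the same library. For Hist1h2bf, which shares 182, this was 3.52 to 5.82, for Hist1h2bl, which shares 189, 1.27 to 2.29, for Hist1h2bk, with 183, 1.52 to 2.08, and for Hist1h2bn, with 129, 1.27 to 1.95. Hist1h2bc itself had 788 to 976 reads in 5 libraries and 1644 in the library labelled wild-type replicate 1. Whether reads of Hist1h2bc were assigned to these genes was not tested. Hist1h2bq and Hist1h2br share 232 and 233 windows and were listed at 0 in all 6 libraries, at loci with 2 transcripts, where a 0 may be an estimate not made. Over the 15 other H2B genes, the rank correlation of total reads with shared windows was 0.358, a description over genes that share a library and sequence.

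**Figure D3:**
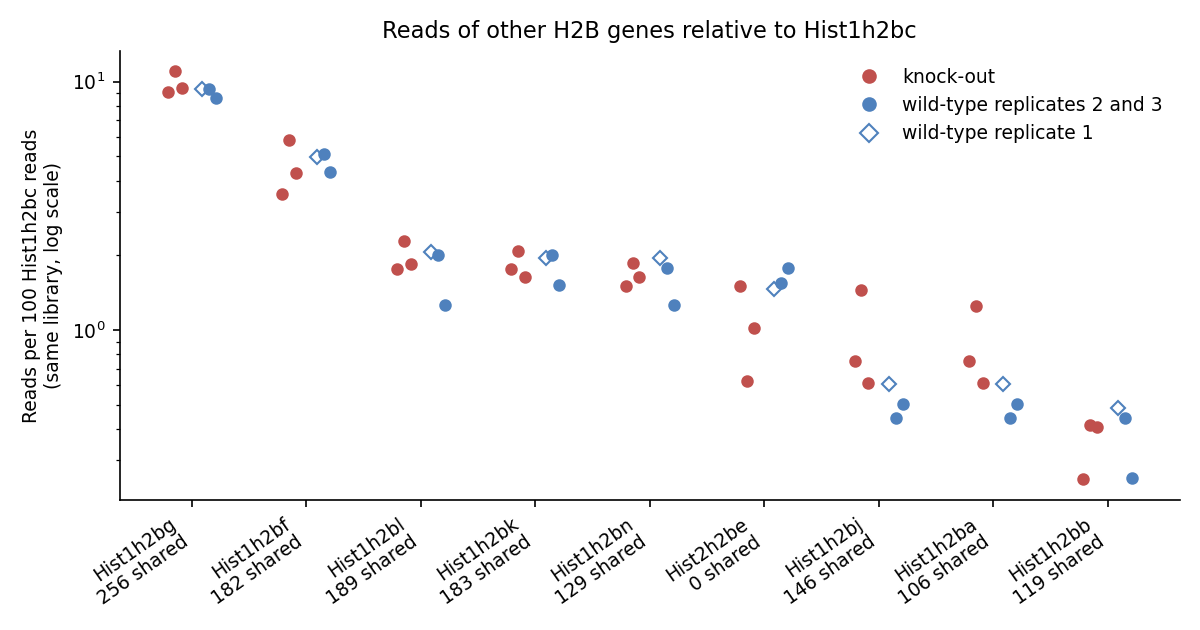
Estimated reads of each other H2B gene read in all 6 libraries per 100 Hist1h2bc reads of the same library (log scale), with a point per library, knock-out left of wild-type, and the number of 50-base windows shared with Hist1h2bc under each name. Hist1h2bg lies at 8.63 to 11.02 in every library, and Hist2h2be, with 0 shared windows, at 0.624 to 1.78.

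Hist2h2be is the H2B gene read in all 6 libraries that has all of its windows to itself. It had 12, 6 and 10 reads in knock-out cells, against 24, 14 and 14 in wild-type cells, and 0.226, 0.116 and 0.198 RPKM against 0.437, 0.244 and 0.260 RPKM. All 3 knock-out libraries lay below all 3 wild-type libraries. Among the 6920 genes above 0 in all 6 libraries, 3.12% showed this order, and of the 15 members 1 did. Without the library labelled wild-type replicate 1 it was again 1 member, Hist2h2be, against 5.04% of these genes. With a mean of 0.247 RPKM the gene was under the level required for the test. Fitted without that requirement, it had a log2 difference of −0.15 and an adjusted p of 0.882 (limma, on log2(RPKM + 1), which understates differences at this level). Hist1h2be is the remaining H2B gene that was read, with 85, 0 and 84 reads in knock-out cells and 0, 0 and 0 in wild-type cells, at a locus with 4 transcripts where zeros may be estimates not made.

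The H2A family was read mainly at Hist2h2aa2 and Hist2h2aa1, which lie close together on chromosome 3 and are near-identical copies. Hist2h2aa2 (ENSMUSG00000063954) had 104, 142 and 90 reads in knock-out cells, against 72, 86 and 76 in wild-type cells, and 9.74, 13.6 and 8.86 RPKM against 6.51, 7.44 and 7.01 RPKM. All 3 knock-out libraries lay above all 3 wild-type libraries, and the library labelled wild-type replicate 1 was here the lowest. It was the only one of 15 members with this order, which 3.84% of the 6920 genes above 0 in all 6 libraries showed. Without the library labelled wild-type replicate 1, 4 of the 15 members had it (Hist2h2aa2, Hist1h2bj, Hist1h2ba and Hist4h4), against 8.15% of these genes, the last 3 at 4 to 14 reads per library. In Hist4h4 the reads themselves met, at 4, 4 and 6 against 4 and 4, and only RPKM separated. Hist1h2bj and Hist1h2ba had the same number of reads in all of these libraries but knock-out replicate 2, so they may not be separate observations, which was not tested. The mean of Hist2h2aa2 was 10.7 ± 2.51 RPKM in knock-out cells and 6.99 ± 0.465 RPKM in wild-type cells (SD, n = 3 each), and the log2 difference was 0.53 ± 0.21 (limma; 95% interval −0.01 to 1.08; adjusted p = 0.941), which did not pass the test. None of its windows is its own, and 3.72% of those of Hist2h2aa1 are. Hist2h2aa1 had 12.8, 16.2 and 59.5 reads in knock-out cells and 18.7, 0 and 111.7 in wild-type cells, at a locus with 4 transcripts. Summed over both copies, reads were 117, 158 and 149 in knock-out cells and 90.7, 86.0 and 188 in wild-type cells, and the groups overlapped. The separation of Hist2h2aa2 thus did not hold for the pair of copies summed.

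The 13 H2A genes of the chromosome 13 cluster took 10 reads in all. Hist1h2al, a processed pseudogene and thus no member, had 18, 28 and 18 reads in knock-out cells and 16, 18 and 12 in wild-type cells. Of them 0 were read in all 6 libraries, 2 in some and 11 in none. Each shares windows with 23 to 47 other genes, against 0 to 14 for the H2B, 12 to 13 for the H3, 1 to 28 for the H4 and 0 to 2 for the H1 members. The medians were 46.5 other genes for H2A and 14.0 for H2B. Members at 0 in all 6 libraries had a median of 27.5% own windows (n = 34), those read in some 64.5% (n = 16) and those read in all 46.6% (n = 14 with matched sequence). Whether reads that fit several places were lost from the members with little sequence of their own was not tested. Of the 34 members at 0, 10 have more than 50% own windows. Among them are Hist1h1b, Hist1h1t and Hist2h2bb with 100%, Hist1h2aa, a testis-specific H2A gene, with 97.7%, Hist2h2ab with 79.0%, and Hist3h2ba with 77.9%. Of these 10, Hist2h2bb, Hist1h2bp and Hist2h3c1 lie at loci with several transcripts, where a 0 may be an estimate not made.

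Many H2A and H2B genes stand head to head, transcribed away from each other from a shared stretch of DNA. There were 12 such pairs with starts 236 to 306 bases apart in the annotation of the files. In 9 pairs the H2B gene was read in all 6 libraries, and in 0 pairs was the H2A gene. The 12 H2B genes took 7428 reads and the 12 H2A genes 16. Hist1h2ac, the partner of Hist1h2bc at a distance of 275 bases, had 2 reads in knock-out replicate 2 and 2 in the library labelled wild-type replicate 1. Hist1h2ae, the partner of Hist1h2bg, had 4 reads in the library labelled wild-type replicate 1 and 2 in wild-type replicate 3, and Hist2h2ac, the partner of Hist2h2be, had 2 and 4 in knock-out replicates 1 and 2. In the 6 further pairs with H2B read in all 6 libraries the H2A gene was at 0 in all 6. In 3 pairs (Hist1h2bp with Hist1h2an, Hist1h2bq with Hist1h2ao, Hist1h2br with Hist1h2ap) both genes were at 0.

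**Figure D4:**
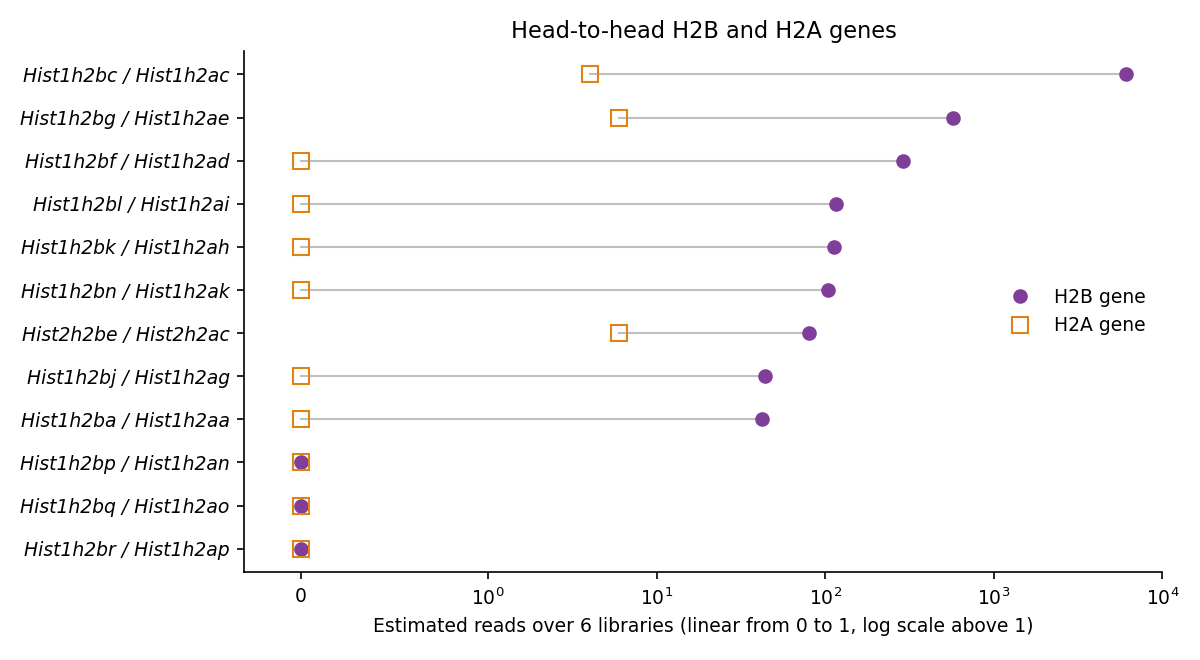
Estimated reads over the 6 libraries (linear from 0 to 1, then log scale) of the H2B and H2A genes of each of the 12 head-to-head pairs. The H2B gene has more reads in 9 pairs and both are at 0 in 3, with Hist1h2bc at 6066 reads beside Hist1h2ac at 4.

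The promoter of Hist1h2bg is printed because it is the most read member with a RefSeq promoter entry whose start faces an H2A gene, and that of Hist1h1c because it is the read linker histone. Both windows run from 250 bases before to 50 bases after the start (RefSeq, GRCm38.p6), on the strand of the gene, with matches in capitals of TATAAA (the TATA box), of CCAAT (the CCAAT box) and of ATTTGCAT (the octamer, bound by OCT1). Both strands were searched, and a match on the other strand is printed as its complement reads on this one. Hist1h2bg lies at chr13:23571150-23571449 (plus strand) and Hist1h1c at chr13:23738557-23738856 (plus strand).
Hist1h2bg: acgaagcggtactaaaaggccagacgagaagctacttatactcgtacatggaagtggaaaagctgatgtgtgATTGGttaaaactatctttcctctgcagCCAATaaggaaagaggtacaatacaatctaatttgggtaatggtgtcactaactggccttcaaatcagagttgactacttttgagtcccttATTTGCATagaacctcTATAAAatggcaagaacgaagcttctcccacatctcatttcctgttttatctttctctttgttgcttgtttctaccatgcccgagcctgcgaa
Hist1h1c: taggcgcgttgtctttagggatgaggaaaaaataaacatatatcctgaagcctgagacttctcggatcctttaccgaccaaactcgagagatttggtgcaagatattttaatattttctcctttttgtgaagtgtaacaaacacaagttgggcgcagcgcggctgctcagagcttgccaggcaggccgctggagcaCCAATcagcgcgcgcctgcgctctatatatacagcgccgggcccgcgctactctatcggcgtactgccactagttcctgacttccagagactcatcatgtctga
In Hist1h2bg the CCAAT letters start 178 bases (other strand) and 150 bases before the start, the octamer 59 and TATAAA 43 bases before it, with no overlap between them. In Hist1h1c CCAAT starts 54 bases before the start. RefSeq promoters were matched for 60 of the 65 members, and Hist1h2bc, Hist1h3a, Hist1h3f, Hist2h2be and Hist2h4 had no entry. TATAAA was found in 58.3% of the 60 promoters, CCAAT in 85.0% and the octamer in 20.0%, against 14.2%, 37.9% and 1.75% of all 27,025 RefSeq promoters of this length. The octamer was found in 7 of 18 H2A and 5 of 14 H2B promoters and in 0 of those of H1, H3 and H4, and windows of a head-to-head pair can overlap and hold the same letters. CCAAT was found in 3 of 12 H4 promoters and in all those of the other 4 families. Of the 8 H2B genes read in all 6 libraries that have an entry, 6 held TATAAA, 8 CCAAT and 4 the octamer. Of the 5 H2B genes read in none, 2, 5 and 1 did. Among these 5, Hist1h2bp, Hist1h2bq, Hist1h2br and Hist2h2bb lie at loci with 2 transcripts, where a 0 may be an estimate not made.

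The H4 genes encode 1 protein from many genes, and were read at low levels. Hist1h4h had 4, 6 and 6 reads in knock-out cells and 8, 6 and 8 in wild-type cells. Hist1h4i had 2, 4 and 8 reads in knock-out cells, against 12, 6 and 4 in wild-type cells, and Hist4h4 had 4, 4 and 6 against 8, 4 and 4. In these 3 genes the groups overlapped or met. Both Hist1h4i and Hist4h4 have models that run on for at least 100 bases past the stem-loop. The other 6 H4 genes that were read in some libraries had 2 to 8 reads in all.

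Summed over the 65 members, RPKM was 91.2, 117.7 and 118.2 in the knock-out libraries, against 172.4, 91.4 and 93.2 in the wild-type libraries. The groups overlapped, and the library labelled wild-type replicate 1 was the highest of all 6. The mean was 109.0 ± 15.5 in knock-out cells and 119.0 ± 46.3 in wild-type cells (SD, n = 3 each), a difference below the spread between replicates. Without the library labelled wild-type replicate 1 the wild-type mean was 92.3 (n = 2), and the order of the means was the other way round. Without Hist1h2bc the sums were 46.2 ± 7.49 in knock-out cells and 47.5 ± 16.1 in wild-type cells. Here too the order turned without the library labelled wild-type replicate 1, with a wild-type mean of 38.3 (n = 2). Hist1h2bc made up 56.0% to 61.8% of the sum in every library, with a mean of 57.7 ± 1.41% in knock-out cells and 59.6 ± 3.20% in wild-type cells. The wild-type mean of this share was 58.5% (n = 2) without the library labelled wild-type replicate 1. In such bulk samples, fewer cells of a type and less RNA per cell cannot be told apart.

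**Figure D5:**
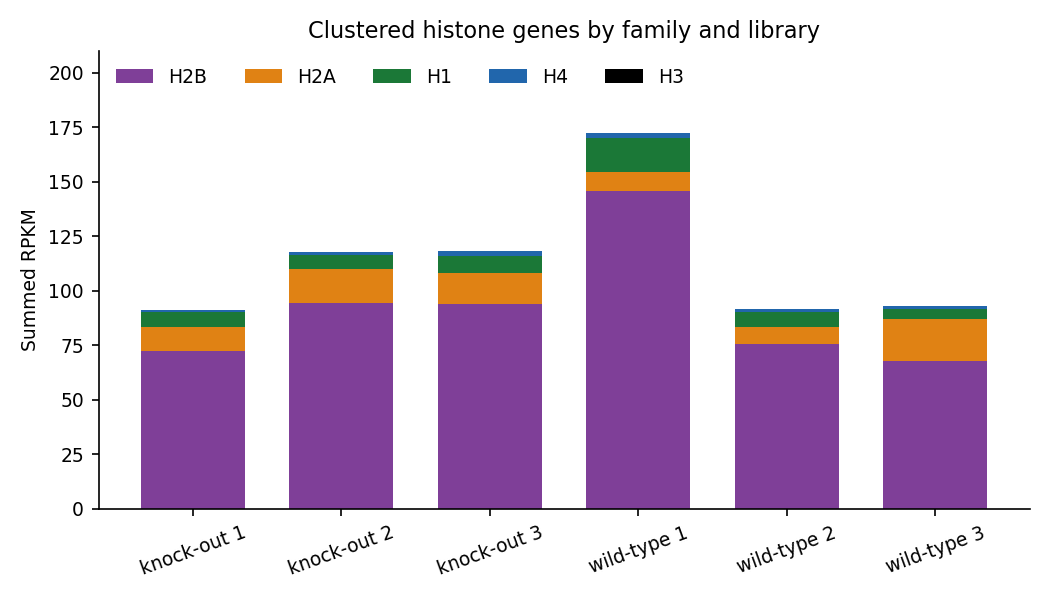
Summed RPKM of the members by family, stacked, in each of the 6 libraries, knock-out left of wild-type. H2B makes up most of every bar, and the library labelled wild-type replicate 1 reaches 172.4 RPKM while the other 5 lie between 91.2 and 118.2 RPKM.

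For the comparison of knock-out with wild-type, the fit over the 11,021 genes averaging 1 RPKM or more called 87 (0.789%) at an adjusted p below 0.05, and 0 of the 9 members among them. Of the 5538 tested genes above 0 in all 6 libraries, as are 8 of the 9 members, 0 were called (0%). At an unadjusted p below 0.05 the count of members was 0 with limma and with voom. It was 1 with a pseudocount of 0.1, with quantile normalization, among genes above 0 in all 6 libraries and without knock-out replicate 3. Over all 11,021 genes tested, 208 were below this p with limma, 405 with voom, 197 with a pseudocount of 0.1 and 218 with quantile normalization. Among genes above 0 in all 6 libraries it was 130 of 5538, and without knock-out replicate 3 it was 311 of 10,929. Of the 9, 3 had a positive and 6 a negative difference, with a median log2 difference of −0.09, beside −0.01 over all genes tested, of which 47.8% were positive. The smallest adjusted p of a member was 0.941, that of Hist2h2aa2. The 95% intervals still allow sizeable differences in either direction, from 0.520 to 1.64 times the wild-type level for Hist1h2bc and 0.400 to 1.86 times for Hist1h1c, on the log2(RPKM + 1) scale. By an exact two-sided permutation test of each of the 15 members read in all 6 libraries, p was 0.1 for 2 members, the smallest that 3 against 3 libraries allow, and up to 1.0. Without the library labelled wild-type replicate 1 the difference was positive in 8 of the 9 members and the median 0.21, with 0 members called. Over all 10,693 genes tested without that library, 50.8% were positive, the median was 0.004 and 198 were called. The difference was then 0.21 ± 0.16 for Hist1h2bc and 0.21 ± 0.23 for Hist1h1c (limma, standard error).

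That library decided the sign for most members. It was the highest of the 6 libraries for 11 of the 15 members read in all, whereas it was the highest for 29.9% of the 6920 genes above 0 in all 6 libraries. Its level was 1.91 times the median of the other 5 libraries for Hist1h2bc, 2.37 times for Hist1h1c, 2.84 times for Hist1h4i, at 2 to 12 reads per library, and 1.93 times for Hist2h2be. The exception was Hist2h2aa2, at 0.735 times. The macrophage markers given above are high in the same library, led by Marco, a macrophage scavenger receptor, with 52.0, 33.3 and 56.3 RPKM in knock-out cells and 2097, 44.4 and 59.1 RPKM in wild-type cells. So is Mki67, a protein of dividing cells, with 58, 84 and 70 reads in knock-out cells and 636, 88 and 66 in wild-type cells. Mki67 was named after its values were seen. It belongs to the list of DNA replication and cell division, whose summed RPKM was 189 to 257 in knock-out cells. That sum was 143 in the library labelled wild-type replicate 1, against 248 and 293 in the other wild-type libraries. Over the 9 genes of the list above 0 in all 6 libraries, it was 76.8, 78.4 and 137.1 in knock-out cells. In wild-type cells it was 98.3, 114.5 and 140.3. Neither sum was highest in the library labelled wild-type replicate 1, but RPKM at loci with several transcripts can shift at similar reads. Rrm1, at a locus with 8 transcripts, had 6.69 RPKM at 802 reads in wild-type replicate 2 and 58.1 RPKM at 891 in replicate 3. Mki67, Mcm4, Ccne2 and Tk1 had their highest RPKM in the library labelled wild-type replicate 1. Of the 9 genes, Mcm7, Rrm1, Tyms, Gins2 and Aurka did not. Mcm4, at a locus with 1 transcript, had 5.01 to 8.71 RPKM in the other 5 libraries and 10.3 RPKM in that one. Pcna and Mcm6 were listed at 0 in that library, at loci with several transcripts. The part of these genes in the histone values was not tested.

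The replacement histones, genes outside the clusters that supply chromatin also when DNA is not replicated and whose messenger RNA is mostly polyadenylated, are set beside the members. H3f3b, which encodes the H3.3 variant, had 346.8, 254.0 and 286.3 RPKM in knock-out cells, against 351.3, 312.2 and 277.3 RPKM in wild-type cells. It was 2.04 to 3.80 times the summed RPKM of all 65 clustered members in the same library. H1f0, the linker histone of resting cells, had 14.7, 17.0 and 16.6 RPKM in knock-out cells and 12.1, 14.3 and 15.1 RPKM in wild-type cells, against 6.40, 6.21 and 7.79 RPKM in knock-out cells and 15.2, 6.85 and 4.75 RPKM in wild-type cells for Hist1h1c. Hist1h1c was thus below H1f0 in 5 libraries and above it in the library labelled wild-type replicate 1. H2afx, an H2A variant that is phosphorylated at DNA breaks, had 5.14, 6.56 and 6.08 RPKM in knock-out cells and 6.07, 4.16 and 5.35 RPKM in wild-type cells. Several others had exact zeros in some libraries: H2afz, for example, had 141.9, 0 and 221.4 RPKM in knock-out cells and 0, 219.4 and 0 RPKM in wild-type cells, and H3f3a, a second H3.3 gene, 0, 44.4 and 0 against 284.3, 145.2 and 160.7 RPKM. Of the 11 replacement histones 7 were tested and 0 called, with a median log2 difference of 0.17. At an unadjusted p below 0.05 (limma) there was 1, H3f3a, against 208 of all 11,021 genes tested. Its locus has 7 transcripts, and its zeros in 2 knock-out libraries may be estimates not made.

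Genes that act on histone RNA and protein did not pass the test either. Of 18 genes for the processing and transcription of histone messenger RNA, 17 were tested and 0 called (median log2 difference −0.05, 6 positive). Slbp, the stem-loop binding protein, had 23.7, 30.9 and 23.0 RPKM in knock-out cells and 39.3, 27.1 and 23.8 RPKM in wild-type cells. Npat, which activates histone gene transcription, had 7.52, 8.41 and 7.99 RPKM in knock-out cells and 9.23, 8.10 and 8.84 RPKM in wild-type cells. Of 17 histone chaperones 14 were tested and 0 called (median −0.07), the highest being Nap1l1 at 307.2, 362.8 and 383.8 RPKM in knock-out cells and 348.6, 327.5 and 360.7 RPKM in wild-type cells. Of 31 genes of DNA replication and cell division 18 were tested and 0 called (median 0.02), and 11 of the 31 were at 0 in all 6 libraries. At an unadjusted p below 0.05 there were 0 in each of these 3 lists. Without the library labelled wild-type replicate 1, 0 genes of any of these lists were called, and the median was 0.06 for the replacement histones, −0.08 for processing and transcription, 0.03 for the chaperones and −0.14 for replication and division.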

How the data were processed

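The deposited files are annotations, 1 per library, holding for each of 118,492 transcripts a number of estimated reads and its RPKM, both written by the authors as text attributes. Alignment was with TopHat2 (version 2) against GRCm38, per the submitters' processing notes. The software that divided reads over transcripts, the treatment of reads that fit several places, the use of strand and the read length are not given in the sources used here. Without strand, overlapping antisense reads cannot be told apart. The RPKM values are scaled to library totals of 19,245,556 to 21,899,881 reads.

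Reads and RPKM were summed per gene. Symbols were looked up by Ensembl identifier (47,993 of 48,353 genes matched), biotypes and sequences from GENCODE M21, promoters from RefSeq. Genes averaging 1 RPKM or more were compared with limma (R 4.3.3, limma 3.58.1, eBayes with a trend, two-sided, no covariate) on log2(RPKM + 1), with p adjusted by Benjamini-Hochberg over all genes tested and called below 0.05. The scale understates differences of low genes. The script was tested on simulated data without exact zeros, so that test does not cover genes with zeros. A stem-loop is 16 bases after the coding end of the form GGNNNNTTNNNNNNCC, with a further T right after the TT and at least 5 of 6 stem pairs. Other steps used Python 3.11.15 with numpy 2.4.6, pandas 2.3.3 and scipy 1.17.1. The members and lists were chosen with earlier results of these data known, and part of the analysis started from earlier scripts. Named genes are the members averaging 1 RPKM or more, the 2 just above and the 2 just below it, head-to-head partners, and leading genes of each list. The other members read, Slbp, Npat and Mki67 were named after their values were seen. Alternatives covered filter, pseudocount, exact zeros, voom, scaling, the trend, threshold, each library left out and a replicate block, and dropping the library labelled wild-type replicate 1 from the count of members read, the shares of reads, the order of the groups and the list medians was added after seeing the data.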

Additional observations from a re-analysis of the deposited data

How the results depend on the processing

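No member passed the test under any of the alternatives run (121 values of the 9 tested members, smallest adjusted p 0.847). The count of genes called over the whole table was 87, and became 0 with the replicate block (54 at an adjusted p below 0.1) and 0 of 5538 when only genes above 0 in all 6 libraries were tested (130 at an unadjusted p below 0.05, with limma), the latter leaving out every gene with a zero. It was 171 to 198 with a library left out. Same-numbered libraries of the groups had correlations of −0.158, −0.0488 and −0.0053 in their deviations. Those with unlike numbers ran from −0.271 to 0.312. With 3 libraries per group these values cannot decide whether the numbers pair the libraries. The block changed the call of no member. Members read in every library numbered 15, and 8 when at least 10 reads were required. The sign of small differences depended on single libraries. Leaving out each in turn, the log2 difference ranged from −0.30 to 0.21 for Hist1h2bc, −0.54 to 0.21 for Hist1h1c, −0.41 to 0.11 for Hist1h2bf, −0.22 to 0.30 for Hist1h2bg, −0.30 to 0.16 for Hist1h2bk, −0.28 to 0.33 for Hist1h2bl, −0.34 to 0.23 for Hist1h2bn and −0.69 to 0.99 for Hist2h2aa1. The sign turned without the library labelled wild-type replicate 1 for all of these but Hist1h2bl, without knock-out replicate 1 for Hist1h2bg, Hist1h2bf and Hist1h2bn, and without other libraries for Hist1h2bl and Hist2h2aa1. Only Hist2h2aa2 kept its sign in these, at 0.37 to 0.65. Quantile normalization turned Hist1h2bg to 0.095, Hist1h2bn to 0.14 and Hist1h2bk to 0.18, and voom turned Hist1h2bg to 0.0006, where the cause was not tested. The log2 difference of the summed RPKM was −0.07, and −0.23 to 0.23 with a library left out, above 0 without knock-out replicate 1 (0.053) or the library labelled wild-type replicate 1 (0.23). Most members had under 10 reads per library, so at most the 8 at or above this allow more than a statement on presence. Several of these 8 share most of their windows with other genes, such as Hist2h2aa2 with 0% and Hist1h2bn with 13.6% own windows. For these, the number of reads does not secure which gene was read.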
